A study of Mus musculus with 38 samples.

Results

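A list of 40 genes of glycolysis and of the response to low oxygen was followed in mouse embryos with hypomorphic Dnmt3b. The list joins 19 glycolytic enzymes, 2 regulators of glycolytic flux (Pdk1 and Pfkfb3), 4 glucose or lactate transporters, 3 oxygen-sensing genes and 12 other targets of the hypoxia-inducible factor HIF. A member was found by its gene symbol, current or older, in the platform annotation; the list itself was drawn up with earlier results of these data known. The arrays measured 39 of the 40 members, among 18300 named genes; Ankrd37 had no spot and is not described. Ero1a is the current symbol of the listed Ero1l. A single spot measured 32 members, Eno3 had 3 spots, and Pfkl, Pfkp, Eno1, Vegfa and Pfkfb3 had 2 each. Gapdh was spotted 257 times, which made 302 spots in all.

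Dnmt3b is a DNA methyltransferase that sets new methylation marks, and a hypomorph is an embryo whose alleles leave only part of the gene's function. The thymus samples are of 18.5 days post coitum and stand for 5 hypomorphic embryos, labelled m3/m24 on 15 of 18 arrays and by embryo number alone on the other 3. Mouse embryonic fibroblasts came from 5 hypomorphic embryos of 12.5 days post coitum and 20 arrays, which carry a number as their label, so that their genotype rests on the study's description. All embryos had a mixed 129SvJae and C57BL/6 background. Every array set the RNA of 1 hypomorphic embryo against a pool of wild-type RNA from 5 samples of the same tissue, with the hypomorph in the dye Cy5 on 19 arrays and in Cy3 on 19. Each embryo had 4 arrays, except thymus embryo 5 with 2. How the fibroblasts were cultured, which allele each fibroblast embryo carried and whether the embryos shared litters are not stated in the sources used here.

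In glycolysis, glucose enters the cell through transporters such as Slc2a1 and Slc2a3 and is split by a chain of enzymes into pyruvate, which lactate dehydrogenase can turn into lactate for export by Slc16a3. At low oxygen the prolyl hydroxylases Egln1 and Egln3 stop marking the subunit Hif1a for destruction, and HIF then raises the genes of most of these enzymes together with Vegfa, Bnip3, Ndrg1 and others. HIF binds DNA at a short core, ACGTG. Dividing thymocytes and cultured fibroblasts are both known for active glycolysis.

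The promoter windows of 4 members are printed because the comparisons below turn on them: Ldha and Vegfa differed between the tissues, Ero1a lay furthest below the pool in fibroblasts together with Eno3, and Pgam2 lay furthest above it in both tissues. Each window holds the 250 bases before the first listed gene start in RefSeq (GRCm38.p6), written 5′ to 3′ on the gene's strand. Capitals mark ACGTG or its reverse complement CACGT, and a CACGTG counts as a match on each strand.
Pgam2 (chr11:5803797-5804046, minus strand): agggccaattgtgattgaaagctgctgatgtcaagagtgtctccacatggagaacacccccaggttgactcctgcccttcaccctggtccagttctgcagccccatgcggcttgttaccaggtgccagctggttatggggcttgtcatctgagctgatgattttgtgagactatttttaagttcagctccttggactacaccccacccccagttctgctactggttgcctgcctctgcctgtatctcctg
Ldha (chr7:46845554-46845803, plus strand): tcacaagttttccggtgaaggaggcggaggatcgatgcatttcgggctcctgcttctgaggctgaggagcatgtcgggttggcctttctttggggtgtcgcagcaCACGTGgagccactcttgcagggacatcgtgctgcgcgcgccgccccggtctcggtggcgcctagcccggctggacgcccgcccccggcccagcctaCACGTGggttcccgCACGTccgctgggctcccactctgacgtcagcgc
Vegfa (chr17:46032378-46032627, minus strand): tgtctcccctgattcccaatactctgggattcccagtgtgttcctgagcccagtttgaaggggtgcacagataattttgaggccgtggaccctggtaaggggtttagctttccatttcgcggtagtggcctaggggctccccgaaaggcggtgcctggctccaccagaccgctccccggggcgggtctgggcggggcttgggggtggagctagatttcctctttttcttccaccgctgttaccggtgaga
Ero1a (chr14:45318573-45318822, minus strand): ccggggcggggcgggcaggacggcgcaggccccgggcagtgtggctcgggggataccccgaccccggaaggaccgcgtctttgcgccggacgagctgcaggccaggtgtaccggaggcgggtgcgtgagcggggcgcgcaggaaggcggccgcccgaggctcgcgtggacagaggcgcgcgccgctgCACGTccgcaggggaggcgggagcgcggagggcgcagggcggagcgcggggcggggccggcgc
The Ldha window held 5 matches, from 2 copies of CACGTG and 1 CACGT, and the Ero1a window held 1 match. The Vegfa window printed and the Pgam2 window held none of these letters; a second Vegfa window, at another listed start, held 1 match. Among the 4 printed windows that of Pgam2 had the fewest CpG, 1 against 25 in Ldha, 11 in Vegfa and 41 in Ero1a. Other members also had windows with few CpG, with 0 in a window of Aldoa, 1 in a window of Hk1 and 3 in that of Eno3. Further windows of Aldoa and Hk1 held 14 to 21. RefSeq windows were found for 37 of the 40 members, and 23 of these had the motif in at least 1 window. Of member windows 27 of 53 (50.9%) held the motif, against 16.6% of all 32841 windows of that length. The motif itself contains a CpG, and member windows had a median of 14 CpG against 6 over all windows. A match is a description of these letters and no evidence of binding, and methylation was not measured on these arrays.

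The values were read as log2 ratios of hypomorph over pool, and centred on the median of each array. An embryo's value is the mean of its Cy5 mean and its Cy3 mean, and a difference was called where limma's adjusted p over all features of the array lay under 0.05. The pool is 1 control sample, so the test leaves out its own spread, and a ratio cannot show how strongly a gene was expressed or whether the defining markers of thymus or fibroblasts were present. Dnmt3b, at a single spot, had a mean ratio of -0.08 in thymus (adjusted p = 0.918) and 0.11 in fibroblasts (adjusted p = 0.359); as the position of that spot relative to the altered bases is not given, this does not check the labels. By their correlations across probes, 2 of the fibroblast arrays stood apart. Array 4 of embryo 4 correlated negatively with the other arrays of its embryo (mean r across probes = -0.279), and array 4 of embryo 1 correlated best, at r = 0.808, with an array of embryo 2. In marker genes that did not enter the list, Ifi202b and Cd44 were at 0.76 and 1.00 on array 4 of embryo 4, while the other 3 arrays lay between -4.72 and -3.63 for Ifi202b and between -1.65 and -1.44 for Cd44. These values of array 4 of embryo 4 go against its label, and whether the labels of the 2 arrays are right was not tested. Results that change without these 2 arrays are given both ways. Array 2 of embryo 1 was not among them but also differed within its embryo. The Y-linked gene Eif2s3y was at 0.28 there, and at -2.08, -2.21 and -1.39 on arrays 1, 3 and 4. Arrays 1, 2 and 3 of embryo 4 had it as their best match outside their embryo (r = 0.343 to 0.424). Bnip3 was at 0.46 on it, and between -0.94 and -0.46 on arrays 1, 3 and 4. Its label was not tested, and no result is given without this array alone. Fibroblast arrays of embryos 2 and 3 are titled AYX or AYY, and those of embryos 1, 4 and 5 AYT, except array 4 of embryo 1 (AYY). What the prefix stands for is not stated, so values are given for these sets apart where they differ.

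In thymus, glycolytic enzymes lay mostly above the wild-type pool by small amounts, and Pgam2 stood out. None of the 39 members passed the test; over all features 5 of 21949 did (0.0228%, with 0.0182% higher and 0.00456% lower). At an unadjusted p under 0.05 there were 12 members above the pool and 0 below (30.8% of members), against 7.49% of all features, 2.69% higher and 4.80% lower. All 5 embryos lay above the pool in 10 members and below it in 2, where the shares over all features were 3.53% and 4.86%. The members' median was 0.06 (0.11 without embryo 3) against 0.01 for all features. Glycolytic enzymes had a median of 0.13, with 14 of 19 above the pool, the 11 other HIF targets 0.09, and the 4 transporters 0.00. Of all thymus features 54.9% lay above the pool.

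Pgam2 encodes the muscle subunit of phosphoglycerate mutase, which moves the phosphate of 3-phosphoglycerate within the molecule. Its thymus values were 0.81, 0.51, 0.50, 0.58 and 0.59 in embryos 1 to 5, a mean of 0.60 ± 0.13 (SD, n = 5) or 1.51-fold the pool. All 5 embryos were high, and all 18 single arrays lay above the pool, between 0.26 and 1.31. The adjusted limma p lay just above the threshold of 0.05. It was the only member of the 39 whose mean exceeded 0.50 in both dye orientations of the thymus, 0.51 on Cy5 arrays and 0.68 on Cy3 arrays. Pgam1, the more widely expressed subunit, was at 0.31, -0.03, 0.27, 0.17 and 0.32, with embryo 2 apart from the other 4. Its mean was 0.21 ± 0.14 (SD, n = 5; limma adjusted p = 0.454).

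The other enzymes above the pool lay along the whole pathway. Pgk1, the phosphoglycerate kinase that makes the pathway's earlier ATP, had values of 0.34, 0.16, 0.32, 0.25 and 0.32 in embryos 1 to 5. All 5 were above the pool, with a mean of 0.28 ± 0.08 (SD, n = 5; 1.21-fold; limma adjusted p = 0.169). Pkm, the pyruvate kinase that makes the later ATP, had 0.38, 0.27, 0.14, 0.41 and 0.19. No thymus array lay below the pool for Pkm (1 was at 0.00), and the mean was 0.28 ± 0.12 (SD, n = 5; limma adjusted p = 0.260). Tpi1, which interconverts the triose phosphates, had 0.48, -0.02, 0.44, 0.15 and 0.15, so that embryos 1 and 3 were high and embryo 2 was at the pool; its mean was 0.24 ± 0.21 (SD, n = 5; adjusted p = 0.533).

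Enzymes upstream of these and lactate dehydrogenase were above the pool by less. Aldoa, the aldolase that splits fructose bisphosphate, had 0.30, 0.20, 0.14, 0.04 and 0.27 in embryos 1 to 5. Ldha, the lactate dehydrogenase subunit that favours lactate, had 0.30, 0.22, 0.05, 0.13 and 0.15. The liver-type phosphofructokinase Pfkl had 0.11, 0.11, 0.19, 0.06 and 0.34, and its 2 spots differed, with means of 0.06 and 0.27. Gpi1, the glucose phosphate isomerase, had 0.19, 0.18, 0.13, 0.06 and 0.08. Their means were 0.19 for Aldoa, 0.17 for Ldha, 0.16 for Pfkl and 0.13 for Gpi1, each above the pool in all 5 embryos, and the limma adjusted p ran from 0.401 for Aldoa to 0.522 for Gpi1. The Pfkl value of embryo 3 also rests on array 2 (0.90, with the other 3 arrays between -0.08 and 0.00). Without that array embryo 3 was at -0.05 and the Pfkl mean was 0.12, and with the median over the arrays of each embryo it was 0.09.

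The enzymes below the pool in thymus were few. Eno1, the widely expressed enolase, had -0.10, -0.02, -0.05, -0.01 and -0.37, low in embryo 5 (mean -0.11 ± 0.15, SD, n = 5; limma adjusted p = 0.842). The 2 Eno1 spots disagreed, at 0.10 and -0.32. Ldhb, the lactate dehydrogenase subunit of oxidative tissues, had -0.44, 0.34, -0.36, 0.27 and -0.25, with a mean of -0.09. The hexokinase Hk1, which traps glucose in the cell, was at 0.15 and Gapdh at 0.05. Hk2, Pfkm, Pfkp, Aldoc, Eno2 and Eno3 lay between -0.04 and 0.05.

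Among the other HIF targets of the thymus, the mitophagy receptors Bnip3 and Bnip3l had embryo values above the pool in all 5 embryos. Bnip3 had 0.42, 0.07, 0.30, 0.14 and 0.32, a mean of 0.25 ± 0.14 (SD, n = 5; limma adjusted p = 0.345). Bnip3l had 0.19, 0.19, 0.22, 0.14 and 0.23, a mean of 0.19 ± 0.03 (SD, n = 5; adjusted p = 0.260). In embryo 3 array 2 was at 1.12, and the other 3 arrays lay between -0.18 and 0.09. Without array 2 that embryo was at -0.04 and the Bnip3l mean was 0.14 ± 0.10 (SD, n = 5), with 4 of 5 embryos above the pool. The label of this array lacks the genotype, and its deviation was not limited to Bnip3l. Among the arrays of embryo 3 it was also highest in Slc2a1 (0.82) and Aldoc (0.77) and lowest in Adm (-0.67) and Hif1a (-0.56). Vegfa, the angiogenic growth factor, had 0.07, 0.20, 0.02, 0.14 and 0.22, and its 2 spots gave 0.12 and 0.14. Ddit4, an inhibitor of mTORC1 signalling, lay below the pool in all 5 embryos, at -0.05, -0.12, -0.07, -0.08 and -0.43, and embryo 5 was lower than the rest (mean -0.15 ± 0.16, SD, n = 5; adjusted p = 0.691).

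**Figure D1:**
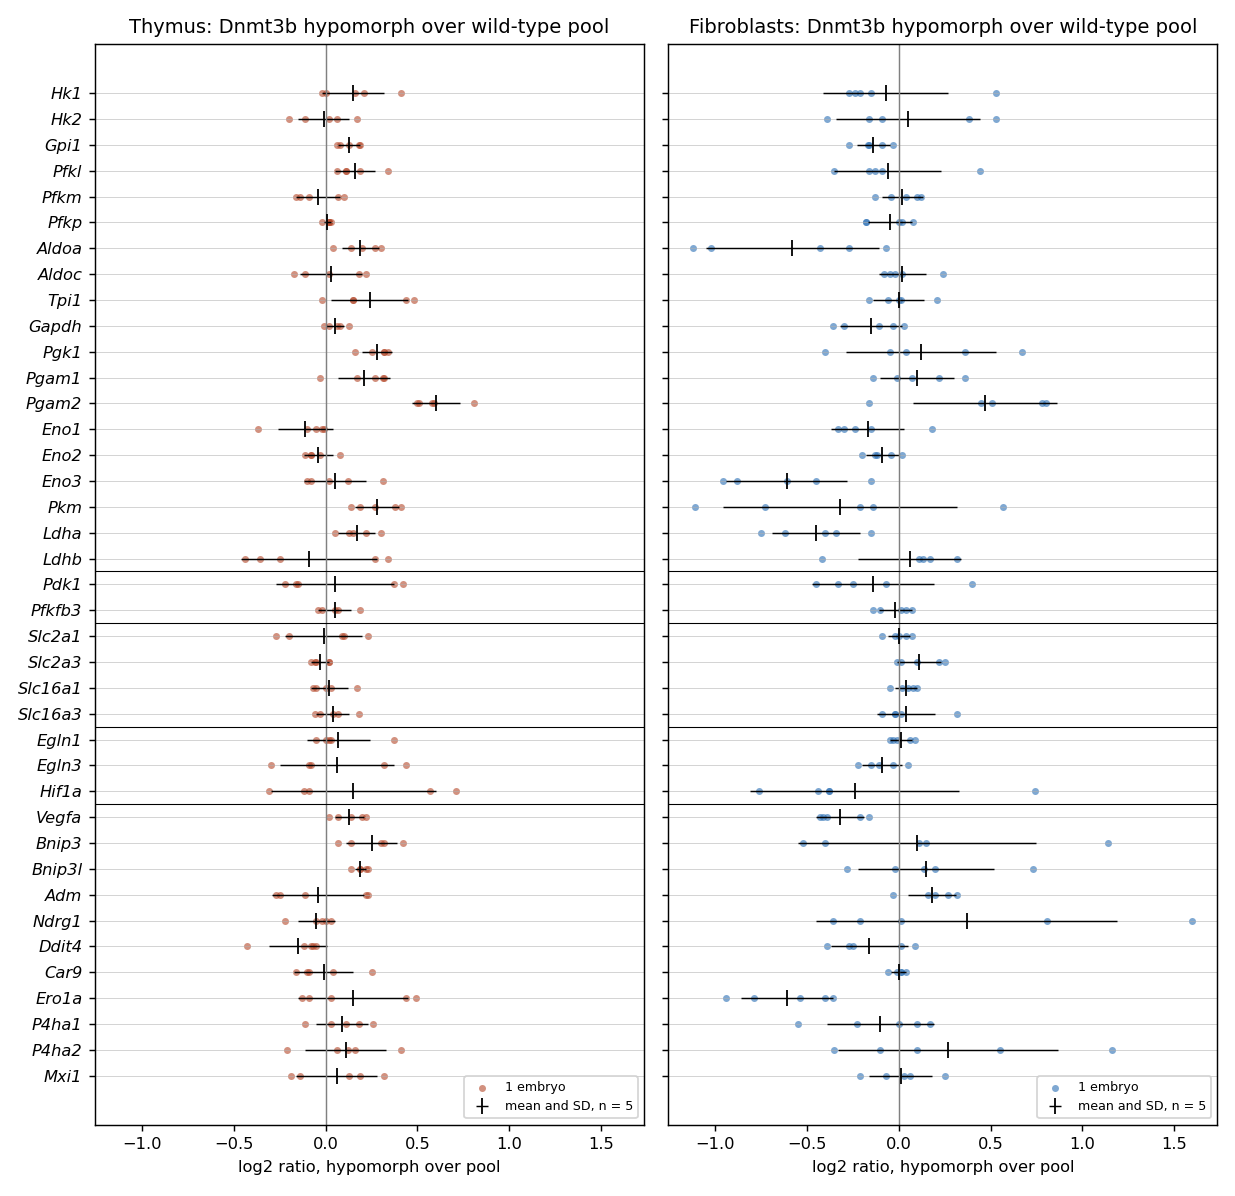
Log2 ratios of hypomorph over wild-type pool (x axis) for the 39 measured members (y axis, grouped by role with enzymes at the top) in thymus on the left and fibroblasts on the right; points are embryos, and the tick and bar are the mean and SD over 5 embryos. In thymus all 5 Pgam2 points lie between 0.50 and 0.81, and in fibroblasts all 5 points of Aldoa, Eno3, Ldha, Ero1a and Vegfa lie below 0.

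A second pattern in the thymus set embryos 2 and 4 apart from embryos 1, 3 and 5. Hif1a itself was at -0.09, 0.71, -0.31, 0.57 and -0.12 in embryos 1 to 5, so that its mean of 0.15 had an SD of 0.45 (n = 5; limma adjusted p = 0.924). Embryos 2 and 4 were also the highest in Ero1a, the oxidase of disulfide formation in the endoplasmic reticulum (0.44 and 0.49, against -0.13 to 0.03 in the others), in Egln3 (0.32 and 0.44, against -0.30 to -0.08), in Pdk1, the kinase that shuts pyruvate dehydrogenase (0.42 and 0.37, against -0.22 to -0.15), and in the peptide hormone gene Adm (0.22 and 0.23, against -0.27 to -0.11). The same embryos were high in Ldhb. The median of 17 thymocyte markers was 0.30 in embryo 2 and 0.17 in embryo 4, against -0.23, -0.20 and -0.23 in embryos 1, 3 and 5. The same embryos differed in array level: before centring, the medians of embryos 2 and 4 were 0.979 to 1.137 on Cy5 arrays and -0.854 to -0.673 on Cy3 arrays, against -0.259 to 0.308 and -0.101 to 0.094 in embryos 1 and 5, with embryo 3 at 0.340 and 0.654 on Cy5 and -0.746 and -0.477 on Cy3. Eif2s3y was at -0.06 to 0.77 on the arrays of embryos 2 and 4, and at -3.97 to 0.05 in embryos 1, 3 and 5. The part of thymocytes, of array level or of embryo sex in the members' values was not tested. Fewer cells of a type and less RNA per cell cannot be told apart in whole tissue. These genes were singled out after their values were seen.

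The transporters and the remaining members of the thymus had means close to the pool, and some varied between embryos. Slc2a1 ran from -0.27 to 0.23, P4ha2 from -0.21 to 0.41, and Egln1 reached 0.37 in embryo 2. The glucose transporters Slc2a1 and Slc2a3 averaged -0.01 and -0.03, and the monocarboxylate transporters Slc16a1 and Slc16a3 averaged 0.02 and 0.04. The fructose bisphosphate regulator Pfkfb3 was at 0.05 and the Myc antagonist Mxi1 at 0.06. The collagen prolyl hydroxylases P4ha1 and P4ha2 were at 0.09 and 0.11, the oxygen sensor Egln1 at 0.07, the stress gene Ndrg1 at -0.05 and carbonic anhydrase Car9 at -0.01.

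The dye orientation moved most of these ratios. With the hypomorph in Cy5, 33 of 39 members lay above the thymus pool and their median was 0.21; with it in Cy3, 20 did and the median was 0.01, while the medians of all features were 0.01 and 0.00. Pgk1 was at 0.64 in Cy5 and -0.08 in Cy3, Ldha at 0.41 and -0.07, and Gapdh at 0.33 and -0.22. Only 15 members lay above the thymus pool in both orientations, among them Pgam2, Pkm (0.41 and 0.14), Bnip3 (0.34 and 0.16), Tpi1 (0.37 and 0.11), Bnip3l (0.31 and 0.08) and Aldoa (0.33 and 0.05). The shares of all features for these counts by orientation were not computed. Every embryo had as many Cy5 as Cy3 arrays, so that a dye effect of equal size in both orientations cancels in its value. Whether it was equal was not tested. Thymus Aldoa was lower in Cy5 than in Cy3 in embryo 1 (0.11 and 0.49) and higher in embryo 2 (0.70 and -0.30). On Cy3 arrays the embryos ran from -0.48 to 0.57 for Aldoa and from -0.36 to 0.58 for Tpi1.

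**Figure D2:**
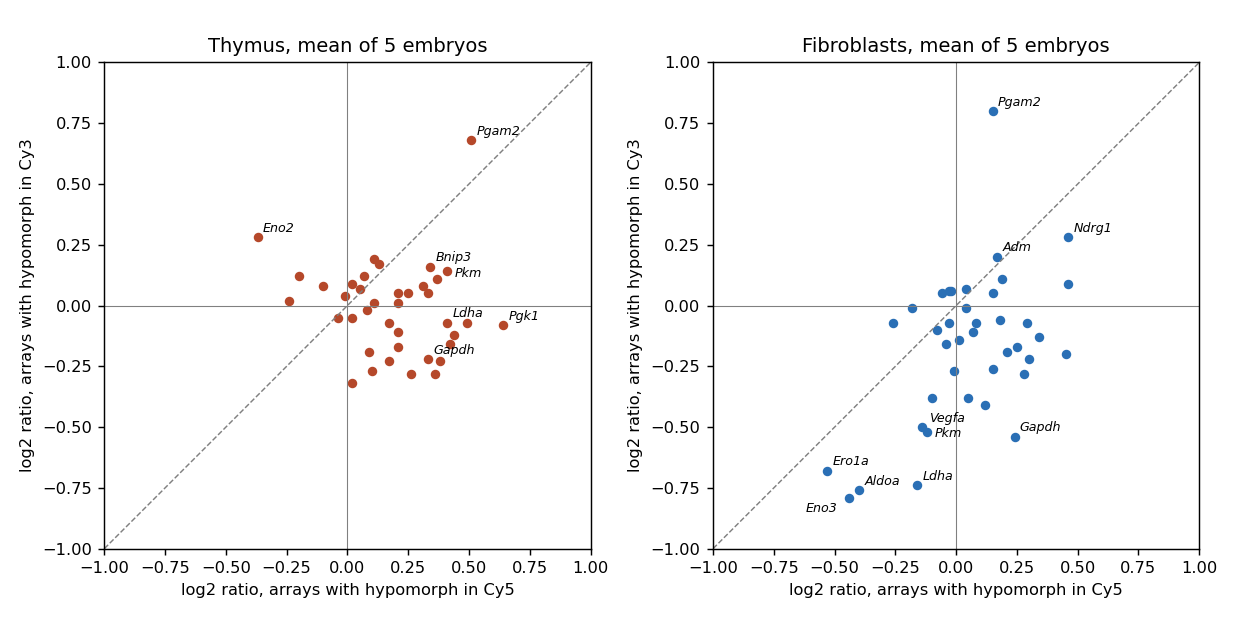
Mean log2 ratio of each of the 39 members over 5 embryos with the hypomorph labelled by Cy5 (x axis) or by Cy3 (y axis), thymus on the left and fibroblasts on the right; the dashed line marks equal values. Most points lie right of and below the line, while thymus Pgam2 (0.51 and 0.68) and fibroblast Ero1a (-0.53 and -0.68), Aldoa (-0.40 and -0.76) and Eno3 (-0.44 and -0.79) keep their sign in both orientations.

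In fibroblasts the members split: a small group of enzymes and HIF targets lay below the pool in every embryo, while most others stayed at it or varied between embryos. None of the 39 members passed the test, and over all features 1 of 22025 did (0.00454%). At an unadjusted p under 0.05 there were 6 members below the pool and 2 above (20.5% of members), against 16.0% of all features, 7.82% lower and 8.22% higher. All 5 embryos lay below the pool in 6 members (Gpi1, Aldoa, Eno3, Ldha, Vegfa and Ero1a) and above it in 0, where the shares over all features were 9.03% and 7.80%. The members' median was 0.00, as for all features, of which 49.1% lay above the pool. The fibroblast shares at an unadjusted p are thus close to the background.

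Ero1a had the smallest adjusted p of the fibroblast members. Its values were -0.79, -0.94, -0.54, -0.36 and -0.40 in embryos 1 to 5, a mean of -0.61 ± 0.25 (SD, n = 5; 1.52-fold lower than the pool; limma adjusted p = 0.130). All arrays but 1 of the 20 lay below the pool, and the exception, at 0.43, was array 4 of embryo 4. Without that array the mean was -0.66 and the gene passed (limma adjusted p = 0.0496). Without both arrays that stood apart it was -0.65 (adjusted p = 0.0575). Embryos 1, 4 and 5 on AYT arrays averaged -0.49, and embryos 2 and 3 averaged -0.74.

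Vegfa followed, at -0.39, -0.43, -0.21, -0.16 and -0.41 in embryos 1 to 5 (mean -0.32 ± 0.13, SD, n = 5; limma adjusted p = 0.134). The mean was -0.31 in embryos 1, 4 and 5 and -0.32 in embryos 2 and 3. Its 2 spots gave -0.22 and -0.42. The lowest single array, at -1.68, was array 2 of embryo 5, whose other 3 arrays lay between -0.06 and 0.11, so the value of that embryo rests on 1 array. Without that array embryo 5 was at 0.01, and the mean was -0.24 ± 0.18 (SD, n = 5; limma adjusted p = 0.234) with 4 of 5 embryos below the pool.

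Among the enzymes of this group, Aldoa and Ldha were lowest in embryos 2 and 3, and Gpi1 was not. Aldoa had -0.43, -1.12, -1.02, -0.07 and -0.27 in embryos 1 to 5, a mean of -0.58 ± 0.47 (SD, n = 5; limma adjusted p = 0.221), with -0.16 on the AYT arrays of embryos 1, 4 and 5 and -1.07 in embryos 2 and 3. Ldha had -0.40, -0.75, -0.62, -0.15 and -0.34, a mean of -0.45 ± 0.24 (SD, n = 5; adjusted p = 0.151), with -0.25 and -0.68 in these sets. Gpi1 had -0.16, -0.27, -0.03, -0.09 and -0.17, all within 0.27 of the pool (mean -0.14 ± 0.09, SD, n = 5; adjusted p = 0.231), with -0.16 and -0.15 in the sets. All 3 enzymes lay below the pool in every embryo, but Gpi1 was above it with the hypomorph in Cy5 (0.12 against -0.41 in Cy3).

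Eno3, the muscle enolase, had -0.45, -0.88, -0.96, -0.15 and -0.61 (mean -0.61 ± 0.33, SD, n = 5; limma adjusted p = 0.151). Its 3 spots disagreed: spots 1 and 3 averaged -0.85 and -0.99, and spot 2 averaged 0.00. Array 4 of embryo 4 was the only array of the 20 above the pool, at 0.92, and without it the mean was -0.68 (adjusted p = 0.0510). Single skeletal muscle markers ran in both directions. Acta1 had -0.62, -1.19, -1.90, -0.02 and -0.17 in embryos 1 to 5, low in embryos 2 and 3 as Eno3 was. Tnni2 had 0.12, 0.40, 0.85, 0.08 and 0.18, highest in embryos 2 and 3. Over the 25 measured muscle markers, however, 15 lay below and 10 above the pool, their median was between -0.03 and 0.01 in each embryo, and Myod1 and Myog, which define the lineage, averaged -0.01 and -0.04. The part of muscle RNA in the Eno3 value was not tested further.

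Above the fibroblast pool, Pgam2 again had the highest mean, though not in every embryo. Its values were 0.78, 0.45, -0.16, 0.51 and 0.80 in embryos 1 to 5, so that embryo 3 lay apart (mean 0.47 ± 0.39, SD, n = 5; 1.39-fold; limma adjusted p = 0.228). The mean was 0.15 on Cy5 arrays and 0.80 on Cy3 arrays, 0.72 in embryos 1, 4 and 5 and 0.14 in embryos 2 and 3. On array 4 of embryo 4 Pgam2 was at -1.24, while the other 3 arrays lay between 0.48 and 1.48, and without it the mean was 0.56 (adjusted p = 0.183). Adm had 0.20, 0.16, 0.32, 0.27 and -0.03, above the pool in 4 embryos (mean 0.18 ± 0.13, SD, n = 5; adjusted p = 0.229), and was at 0.17 and 0.20 in Cy5 and Cy3.

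A set of HIF targets instead followed the embryo. Ndrg1 had -0.21, 0.81, 1.60, 0.01 and -0.36 in embryos 1 to 5, and all 4 arrays of embryo 3 lay between 1.32 and 1.77. Its mean of 0.37 ± 0.82 (SD, n = 5; limma adjusted p = 0.579) joins -0.29 on the AYT arrays of embryos 1, 4 and 5 and 1.20 in embryos 2 and 3. P4ha2 had -0.10, 0.55, 1.16, 0.10 and -0.35, with -0.21 and 0.86 in these sets (mean 0.27 ± 0.60, SD, n = 5; adjusted p = 0.574). Neither mean describes any 1 embryo.

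Bnip3, Bnip3l, Pgk1 and Hif1a were also highest in embryo 3, at 1.14, 0.73, 0.67 and 0.74, and lay at -0.52, -0.28, -0.40 and -0.38 in embryo 5. Hif1a was below the pool in the other 4 embryos, down to -0.76 in embryo 1. Pkm and Aldoa ran the other way in embryos 2 and 3, with -1.11 and -0.73 for Pkm, which was at 0.57 in embryo 5. Cell cycle genes differed between the same embryos, with medians over 26 genes of 0.52, 0.31, -0.25, 0.08 and 0.66 in embryos 1 to 5, so that the embryo highest in these HIF targets was lowest in them. The Y-linked gene Eif2s3y was at 0.95 to 1.11 on the arrays of embryo 3, -3.20 to -1.27 in embryo 2 and -4.33 to -2.78 in embryo 5. The part of proliferation, of the title prefix, of the culture or of embryo sex in this pattern was not tested. The members in it were singled out after their values were seen.

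**Figure D3:**
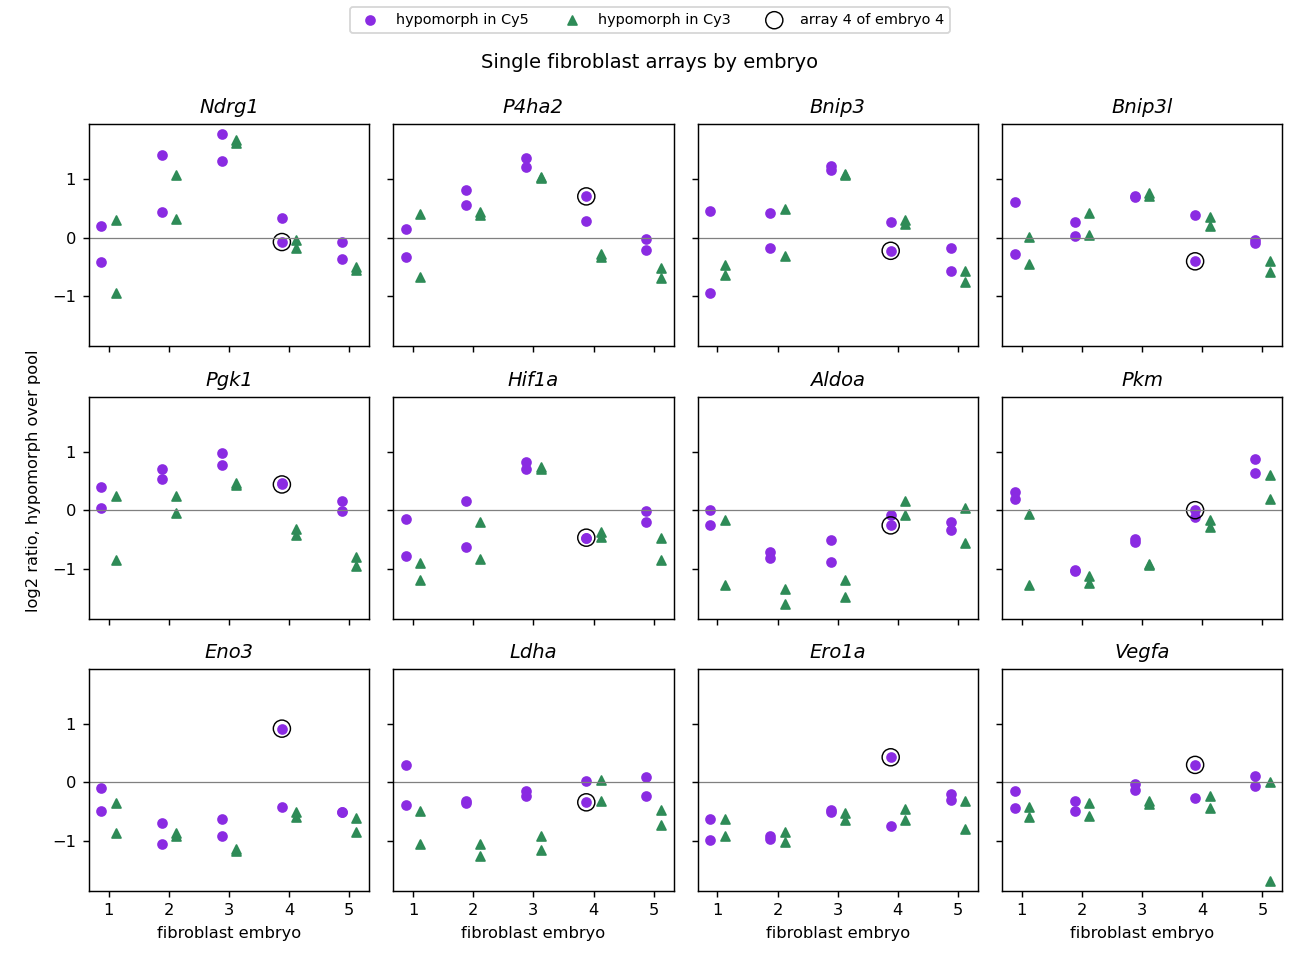
Log2 ratio of hypomorph over pool (y axis) on each fibroblast array for 12 members, by embryo (x axis); circles are arrays with the hypomorph in Cy5, triangles in Cy3, and the ring marks array 4 of embryo 4. All 4 arrays of embryo 3 are high for Ndrg1 (1.32 to 1.77), and the ringed array lies above the pool for Eno3 (0.92), Ero1a (0.43) and Vegfa (0.30), where the other arrays of embryo 4 lie below it.

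The remaining fibroblast members lay within 0.20 of the pool, apart from Pkm at -0.32 and Hif1a at -0.24. Gapdh was at -0.15 (limma adjusted p = 0.341) over its 257 spots, but at 0.24 on Cy5 arrays and -0.54 on Cy3 arrays. Eno1 was at -0.17, Ddit4 at -0.16 and Pdk1 at -0.14. Slc2a3 was at 0.11, Slc16a1 and Slc16a3 both at 0.04, and Slc2a1, Tpi1 and Car9 at 0.00. Hk1 averaged -0.07 and Hk2 0.05, each with an SD over 0.30. In Cy5 arrays 23 members lay above the fibroblast pool, with a median of 0.05, and in Cy3 arrays 10 did, with a median of -0.13. The median of all features was 0.01 in each orientation, and the shares of all features above the pool by orientation were not computed.

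The ratios of the tissues were then set against each other over 10 embryos. The difference of thymus minus fibroblasts passed the test for Vegfa and Ldha, 2 of the 39 members, where 90 of 21852 features passed (0.412%). At an unadjusted p under 0.05 there were 9 members higher in thymus and 1 lower (25.6% of members), against 15.4% of all features, 6.84% and 8.57%. The embryo values of thymus lay wholly above those of fibroblasts in 6 members (Gpi1, Aldoa, Eno3, Ldha, Vegfa and Ero1a) and wholly below in 0, against 1.91% and 2.04% of all features. These are the same 6 members that lay below the fibroblast pool in every embryo, and the fibroblast values enter both counts.

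Vegfa averaged 0.13 in thymus and -0.32 in fibroblasts, a difference of 0.45 (SE 0.07, 95% interval 0.29 to 0.61; limma adjusted p = 0.0380). All thymus embryos (0.02 to 0.22) were above all fibroblast embryos (-0.43 to -0.16). Ldha averaged 0.17 in thymus and -0.45 in fibroblasts, a difference of 0.62 (SE 0.11, 95% interval 0.38 to 0.86; limma adjusted p = 0.0412). Here too thymus (0.05 to 0.30) and fibroblasts (-0.75 to -0.15) did not overlap. The differences had the same sign in both orientations, at 0.35 in Cy5 and 0.55 in Cy3 for Vegfa and at 0.57 and 0.67 for Ldha. Without array 2 of fibroblast embryo 5, on which Vegfa was at -1.68, the Vegfa difference was 0.36 (adjusted p = 0.0952), fibroblast embryo 5 lay at 0.01 next to the lowest thymus embryo at 0.02, and Ldha was at 0.61 (adjusted p = 0.0521). Both calls sat near the threshold: without any 1 of the 5 thymus embryos neither passed (adjusted p from 0.0655 to 0.116), nor without fibroblast embryo 1 or 2 (0.0928 to 0.121), and Ldha did not pass without fibroblast embryo 3 (0.0831). With the AYT arrays alone on the fibroblast side the differences were 0.44 for Vegfa and 0.42 for Ldha (both adjusted p = 0.139). With embryo number as a block neither passed (adjusted p = 0.0995 for Vegfa and 0.0824 for Ldha); the numbers do not pair embryos, as the tissues come from different ages.

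Aldoa, Ero1a, Eno3 and Pkm had differences as large as that of Vegfa or larger and did not pass. Aldoa differed by 0.77 (0.19 in thymus, -0.58 in fibroblasts; 95% interval 0.35 to 1.19; limma adjusted p = 0.0986) and Ero1a by 0.75 (0.15 and -0.61; 0.41 to 1.10; adjusted p = 0.0677). Eno3 differed by 0.66 (0.05 in thymus, -0.61 in fibroblasts; adjusted p = 0.0804) and Pkm by 0.60 (0.28 in thymus, -0.32 in fibroblasts; adjusted p = 0.293). Gpi1 differed by 0.27 (0.13 in thymus, -0.14 in fibroblasts; adjusted p = 0.0804). Without array 4 of fibroblast embryo 4, Ero1a (0.81, adjusted p = 0.0317), Eno3 (0.73, 0.0216) and Gpi1 (0.29, 0.0455) also passed, beside Vegfa (0.48, 0.0114) and Ldha (0.60, 0.0378).

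Tpi1 (0.24 in thymus, 0.00 in fibroblasts) and Gapdh (0.05 in thymus, -0.15 in fibroblasts) differed by 0.24 and 0.21, with limma adjusted p of 0.314 and 0.257. The 1 member lower in thymus at an unadjusted p under 0.05 was Slc2a3, the high-affinity glucose transporter, at -0.03 in thymus and 0.11 in fibroblasts (difference -0.14; adjusted p = 0.322). Wider intervals went with Ndrg1, the largest difference in that direction, at -0.05 in thymus and 0.37 in fibroblasts (-0.42, 95% interval -1.13 to 0.29; adjusted p = 0.577), and with Hif1a, at 0.15 in thymus and -0.24 in fibroblasts (0.39, -0.23 to 1.02; adjusted p = 0.553). Pgam2, high in both tissues, differed by 0.12 with a 95% interval of -0.24 to 0.48 (adjusted p = 0.753), which leaves a difference in either direction possible. For Bnip3l the difference was 0.04 (-0.29 to 0.37) and for Slc16a3 0.00 (-0.19 to 0.18).

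**Figure D4:**
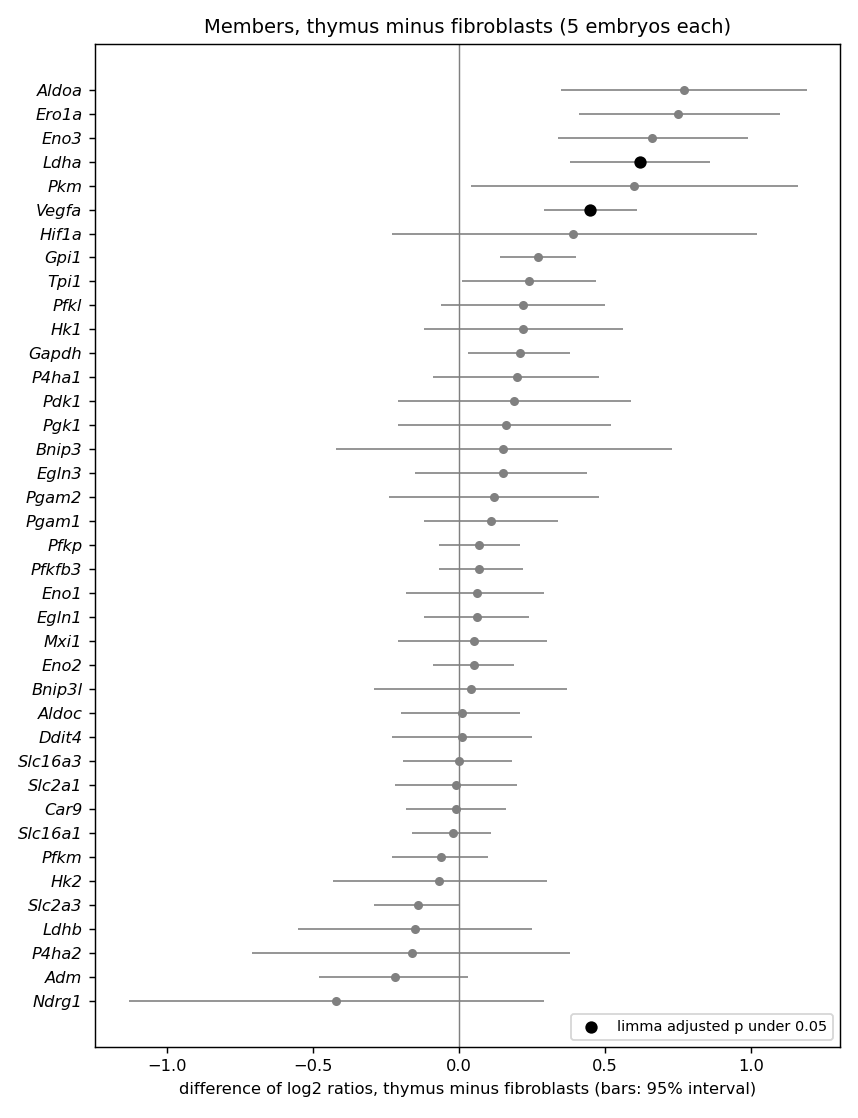
Difference of log2 ratios, thymus minus fibroblasts (x axis), for the 39 members (y axis, sorted by size), with 95% intervals from 5 embryos per tissue; filled black points passed at a limma adjusted p under 0.05. Vegfa (0.45) and Ldha (0.62) passed, while Aldoa (0.77) and Ero1a (0.75) had larger differences with wider intervals.

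Neighbouring pathways were read from separate lists. Of 21 other measured genes of glycolysis and its regulation none passed in either tissue (median 0.00 in thymus and 0.02 in fibroblasts). Bpgm, the red cell enzyme that makes bisphosphoglycerate, had 0.82, -0.19, 0.50, 0.09 and 0.50 in thymus, high in embryos 1, 3 and 5 (mean 0.34; limma adjusted p = 0.650). Red cell markers had a thymus median of 0.12, with 9 of 13 above the pool, against 54.9% of all features. Their medians were 0.12, -0.10, 0.10, 0.09 and 0.19 in embryos 1 to 5. Fech, which inserts iron into heme, was at 0.64 in thymus and -0.35 in fibroblasts, a difference of 0.99 that passed (limma adjusted p = 0.0342). The part of the red cell markers in the Bpgm and glycolysis values of the thymus was not tested. Pklr, the pyruvate kinase of liver and red cells, was at 0.27 in fibroblasts (adjusted p = 0.230).

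None of 32 other measured HIF targets passed in either tissue or in the difference, with medians of 0.02 in thymus and -0.02 in fibroblasts. In fibroblasts 7 lay below and 2 above the pool at an unadjusted p under 0.05 (28.1% against 16.0% of all features). Insig2, an inhibitor of sterol synthesis, had -0.65, -0.45, -0.46, -0.28 and -0.77, and the clock repressor gene Bhlhe40 had -0.64, -0.69, -0.23, -0.24 and -0.35. Csrp2, a LIM domain protein, had 0.76, 0.69, 0.34, 0.25 and 0.59. In each of these 3 genes all embryos had 1 sign, and the limma adjusted p was 0.130 for Insig2 and Csrp2 and 0.151 for Bhlhe40. In thymus the transferrin receptor Tfrc was at 0.26, the lysyl oxidase Loxl2 at 0.21 and Igfbp3 at 0.43, with adjusted p from 0.338 to 0.391.

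None of 14 measured HIF regulators passed, with medians of -0.05 in thymus and 0.01 in fibroblasts. The clock factor gene Arntl lay furthest from the fibroblast pool, below it in all 5 embryos at -0.75, -0.38, -0.07, -0.18 and -0.76 (mean -0.43 ± 0.32, SD, n = 5; limma adjusted p = 0.211). Arnt, the HIF partner subunit, was at -0.14 in fibroblasts (limma adjusted p = 0.263), and the asparaginyl hydroxylase gene Hif1an was at 0.17 in thymus (adjusted p = 0.649). The enzymes of the pentose phosphate pathway (6 measured) and of pyruvate oxidation and the citric acid cycle (26 measured) had medians of 0.01 each in thymus and 0.05 and 0.04 in fibroblasts, and none passed. The testis isoenzymes of glycolysis were looked at because germ cell genes are known targets of Dnmt3b: Pgk2, Gapdhs, Ldhc, Pdha2 and Eno4 lay between -0.06 and 0.09 in both tissues, and Ldhal6b was at 0.00 in thymus and -0.17 in fibroblasts (adjusted p = 0.152).

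Of all features, 54.9% lay above the pool in thymus and 49.1% in fibroblasts. Cell cycle genes, which share the active metabolism of dividing cells, lay above it in 24 of 26 cases in each tissue. Their medians were 0.17 in thymus and 0.26 in fibroblasts, and none passed. At an unadjusted p under 0.05 there were 14 above the pool in thymus (53.8% of the list, against 30.8% of the members and 7.49% of all features). In fibroblasts 5 were above the pool (19.2% of the list), near the 16.0% of all features called there. In thymus their median was 0.34 on Cy5 arrays and 0.01 on Cy3 arrays, the same imbalance as in the glycolytic enzymes (0.33 and 0.02). Fibroblast markers had a median of -0.08 in thymus and 0.11 in fibroblasts, and neural markers -0.11 and 0.03; none of these passed in either tissue. In thymus 6 of 14 fibroblast markers were lower and 1 higher at an unadjusted p under 0.05, and 4 of 12 neural markers were lower. Of all thymus features 4.80% were lower and 2.69% higher at that threshold. S100a4 averaged -0.45 and Postn -0.42 there, Fn1 0.36, and the myelin gene Mbp -1.02. The part of these lists in the members' values was not tested. Spots of near-identical copies, such as the processed pseudogenes known for Gapdh, Pgk1, Ldha and Aldoa, can share signal, and how specific each spot is was not tested.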

How the data were processed

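Amplified total RNA of an embryo and of the wild-type pool carried opposite dyes (Cy3, Cy5) on a 2-colour array, which was scanned on an Agilent G2565AA, per the labels' protocols and design text. The submitters excluded 2 thymus arrays for quality. The deposited values are log2 ratios, 1 per spot for 25344 spots and 38 arrays; how background was corrected and signals normalized is not stated in the sources used here. Scanner intensities were not used here, so signal over background is unknown.

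Scale and the turning of the sign were read from the deposited log2 values. The upper bound was reached 445 times, only on arrays with the hypomorph in Cy5, and the lower bound 423 times, only on arrays with it in Cy3. By these bounds the sign had been turned already between orientations. The bounds do not show which sample is the numerator, so hypomorph over pool is a reading that was not tested. Arrays of 1 orientation and tissue correlated positively across probes, which either sign would give. Arrays of the same embryo in opposite orientation correlated at -0.544 to -0.244 in thymus and -0.733 to 0.19 in fibroblasts. Ratios of 1 embryo could thus run against each other between orientations. Array medians lay between -0.888 and 1.137, so the table was not centred. An array had 147 to 423 missing spots and 1 to 50 at a bound, which were set to missing. Each array was then centred on its median, spots of 1 symbol were averaged, and an embryo's value is the mean of its orientation means.

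Symbols came from the platform annotation: 21111 spots had 1, 4233 none. RefSeq (GRCm38.p6) updated 3974. R 4.3.3 with limma 3.58.1 (lmFit, eBayes, two-sided, Benjamini-Hochberg over all features, threshold 0.05) tested each tissue against 0 over 5 embryos and thymus minus fibroblasts over 10; a feature needed all embryo values. The number of arrays and embryos limits the precision. The steps were run on simulated data with a dye effect of equal size in both orientations and all embryos. Dye effects that differ between embryos were not simulated. No label says whether embryos shared litters, so p-values measure the spread between these samples.

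The members and lists were chosen with earlier results of these data known. Values are given by embryo for members that passed, had an unadjusted p under 0.05, or were among the 3 highest or 3 lowest means of a tissue. Of each other list at most 3 genes per tissue with an unadjusted p under 0.05 are named. All measured testis isoenzymes, and Myod1 and Myog of the muscle markers, are named whatever their p. Alternatives changed the centring, scaling, bounds, summary, weights, probes, completeness, orientation, embryos and block, and, chosen after seeing the data, print blocks, arrays that stood apart or carried a member's value, and title prefixes.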

Additional observations from a re-analysis of the deposited data

Results flagged for a closer look

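The change relative to the pool differed between the tissues in 2 members by a test of the difference itself. Ldha differed by 0.62 (0.17 in thymus and -0.45 in fibroblasts) and Vegfa by 0.45 (0.13 in thymus and -0.32 in fibroblasts) on the log2 scale; neither passed without array 2 of fibroblast embryo 5.

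In 8 of the 78 sets of 5 embryo values (39 members in 2 tissues), 1 embryo lay far from the other 4 by Dixon's test; chance flags about 1 in 20 sets. In thymus these were Pfkp in embryo 3 (-0.02), Eno1 in embryo 5 (-0.37), Egln1 in embryo 2 (0.37) and Ddit4 in embryo 5 (-0.43). In fibroblasts they were Hk1 in embryo 5 (0.53), Ldhb in embryo 3 (-0.42), Slc16a3 in embryo 3 (0.32) and Hif1a in embryo 3 (0.74). The Pfkp value differed from the others by 0.05 at most and marks a very narrow spread. Embryo 3 of the fibroblasts, with 3 of the 8 values, is also the embryo in which Ndrg1, P4ha2 and Bnip3 were highest.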

How the results depend on the processing

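The pool is a single control sample, spot intensities were not used here, and most members rest on 1 spot, so how specific each spot is limits small ratios. Features passing in thymus, fibroblasts and the difference (5, 1 and 90 as reported; 4 higher and 1 lower, 0 and 1, 51 and 39) were 1, 8 (3 higher, 5 lower) and 17 as deposited, with 0 members in the difference. With arrays scaled they were 13 (9 higher, 4 lower), 2 and 62, with 1 member in thymus and 1 in the difference; with quantiles within orientation 5 (1 higher, 4 lower) in fibroblasts and 157 in the difference; with bounds kept 0 in fibroblasts. Embryo medians gave 3, 7 and 141. Single arrays with embryo as a random block gave 413, 2110 and 1589 (3, 6 and 7 members), and embryo weights 250 in thymus and 787 in the difference (6 and 5 members). The median of probes gave 8 in thymus (1 member), and a value on every array 19 in thymus (1 member) and 137 in the difference. Without the arrays that lack the genotype there were 9 in thymus (1 member) and 1 member in the difference, and without array 2 of thymus embryo 3 there were 9 in thymus (1 member). In each of these counts of 1 in thymus the member was Pgam2, whose adjusted p ran from 0.000108 to 0.214 over 17 alternatives.

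With the hypomorph in Cy5 alone 4881 features and 13 members passed in thymus (member median 0.21) and 6298 and 10 in fibroblasts; in Cy3 alone 5244 and 6 (0.01) and 8145 and 11 (-0.13). A dye effect is not averaged out in either. Without array 2 of fibroblast embryo 5, 0 members passed in the difference. Without array 4 of fibroblast embryo 4, 83 features and 1 member passed in fibroblasts and 291 and 5 in the difference; without array 4 of embryos 1 and 4, 49 features in fibroblasts and 225 and 4 members in the difference. With AYT fibroblast arrays alone 0 passed in fibroblasts (median -0.09) and 4 features and 0 members in the difference, and Ndrg1 (-0.29) and P4ha2 (-0.21) changed sign; with AYX or AYY arrays 0 passed. Both sets hold fewer embryos. Prefix as a batch term gave 1321 features and 5 members, all 5 below the pool (Aldoa, Eno3, Ero1a, Ldha and Vegfa), in fibroblasts.

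Leaving out 1 embryo gave 0 to 4 features in thymus, 0 to 39 in fibroblasts and 3 to 379 in the difference, 0 members in thymus and in fibroblasts and 0 to 5 in the difference, and member medians of 0.06 to 0.11 in thymus and -0.05 to 0.00 in fibroblasts. Ldhb in thymus was between -0.19 and 0.00, with 0.00 without embryo 1. With embryo number as a replicate block 1 feature and 0 members passed in the difference; the numbers name different embryos and give no pairing. Over 27 alternatives Vegfa stayed between 0.36 and 0.49 and lost its call in 12, and Ldha stayed between 0.42 and 0.70 and lost it in 14. Except where a sentence above gives it, the cause of a change was not tested.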
